A study of Gallus gallus with 72 samples.

Results

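PLN, CASQ2 and ATP2A2 encode proteins that handle calcium in the sarcoplasmic reticulum, and their transcripts were followed in chicken breast muscle across hatch and growth. The 3 genes were taken from the count table by symbol, and each symbol matched 1 of the 12046 genes listed. The libraries came from male broiler-type birds of the crossbred of Cornish and White Plymouth Rock, and of those parental breeds. Sampling was at embryonic day 17 (E17) and at 1, 21 and 42 days after hatch (D1, D21 and D42), and the 3 breeds at these 4 stages form 12 groups with 6 libraries apiece. No treatment or genetic change is named for any group.

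Muscle fibres contract when calcium leaves the sarcoplasmic reticulum through ryanodine receptors, and they relax when SERCA pumps return it. ATP2A2 encodes the pump SERCA2, typical of heart and slow-twitch fibres. PLN encodes phospholamban, a small membrane protein that slows the pump until it is phosphorylated. CASQ2 encodes a calsequestrin, an abundant protein that buffers calcium inside the store, and in mammals it is the calsequestrin of heart and slow muscle. Mature chicken breast muscle is built almost wholly of fast-twitch fibres, which use the related pump SERCA1.

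On the GRCg7b build, RefSeq places PLN (ENSGALG00010015134) at chr3:62579083-62593039, CASQ2 (ENSGALG00010025418) at chr1:80504417-80536556 and ATP2A2 (ENSGALG00010025130) at chr15:5319218-5360599, and all 3 are listed as protein-coding. RefSeq gives CASQ1 as another name of CASQ2, while the count table has a separate gene called CASQ1, so how reads of the calsequestrins were divided is uncertain. ATP2A1, which encodes SERCA1, and RYR1 were not analysed here.

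Total counts ran from 16673085 (crossbred D1 library 1) to 75670549 per library, with a median of 54464688. PLN had 56 to 14922 counts per library, CASQ2 16224 to 241694 and ATP2A2 1921 to 46016. Levels are given in CPM, a count divided by its library's TMM-scaled total, which compares libraries for a gene but not genes with each other. Fast fibre markers, summed over the 11 of 17 listed genes that were measured, were at 35159 to 173714 CPM in every library, so the libraries hold muscle as labelled. The labels do not say that replicates were separate birds, so the p-values cover the spread of these samples alone, and that spread may be technical. In whole tissue, fewer cells of a type and less RNA per cell cannot be told apart. Markers of other cells also moved across stages: all 8 fibroblast genes fell at D1 against E17 (5886 to 34639 CPM in sum at D1, 39516 to 60306 at E17) and 7 of 8 listed leukocyte genes were measured and rose at D21 against D1. Of 10 listed heart genes 6 were measured, with a sum of 259 to 477 CPM at E17, 140 to 559 at D1, 94.4 to 249 at D21 and 53.5 to 307 at D42; 0 rose and 2 fell at D1 against E17. Of all genes, 37.3% were called higher and 35.6% lower at D1 against E17, and 36.4% higher and 36.8% lower at D21 against D1. The part of these lists in the results was not tested.

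PLN peaked at D1. It was at 3.10 to 13.5 CPM (median 6.65) at E17, 18.1 to 265 CPM (median 60.0) at D1, 1.44 to 8.23 CPM (median 3.56) at D21 and 1.92 to 27.2 CPM (median 5.52) at D42, over 18 libraries each. Every D1 library lay above every E17 library and above every D21 library. Stage means were 6.85 ± 3.04, 99.4 ± 80.4, 3.98 ± 1.63 and 7.50 ± 6.29 CPM in that order (SD, n = 18). In edgeR's quasi-likelihood test with Benjamini-Hochberg adjustment over all genes, PLN rose 14.7-fold at D1 against E17 (log2 fold change 3.88 ± 0.32 SE, adjusted p = 4.39e-17). It fell 24.4-fold at D21 against D1 (-4.61 ± 0.33, adjusted p = 1.28e-19).

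PLN was higher again at D42 than at D21, by 1.75-fold (0.81 ± 0.30, adjusted p = 0.0295), with overlapping libraries. Without crossbred D42 library 5, at 27.2 CPM, the difference was 0.60 ± 0.29 (adjusted p = 0.101) and was not called. That library was left out after the data had been seen, as the highest in PLN at D42. A lower D42 level without it follows from the choice, so this value is a description. D42 against E17 gave 0.08 ± 0.29 (95% interval -0.50 to 0.66, adjusted p = 0.801).

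Within D1 the PLN level was uneven in each breed. The crossbred libraries had 104, 106, 18.1, 212, 20.5 and 33.9 CPM, an 11.7-fold range. The Cornish libraries had 32.9, 44.2, 48.0, 265, 211 and 113 CPM, an 8.05-fold range. The White Plymouth Rock libraries had 35.0, 71.5, 48.5, 191, 35.7 and 198 CPM, a 5.66-fold range. The lowest library at D1 nevertheless stood above the highest at E17, which was White Plymouth Rock library 1 at 13.5 CPM. As a standard deviation of log2 CPM within groups, PLN varied by 1.29 at D1, more than 99.2% of 9280 genes, whose median was 0.280. At E17, D21 and D42 it varied by 0.60, 0.56 and 0.90, more than 98.1%, 95.4% and 96.7% of genes.

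**Figure D1:**
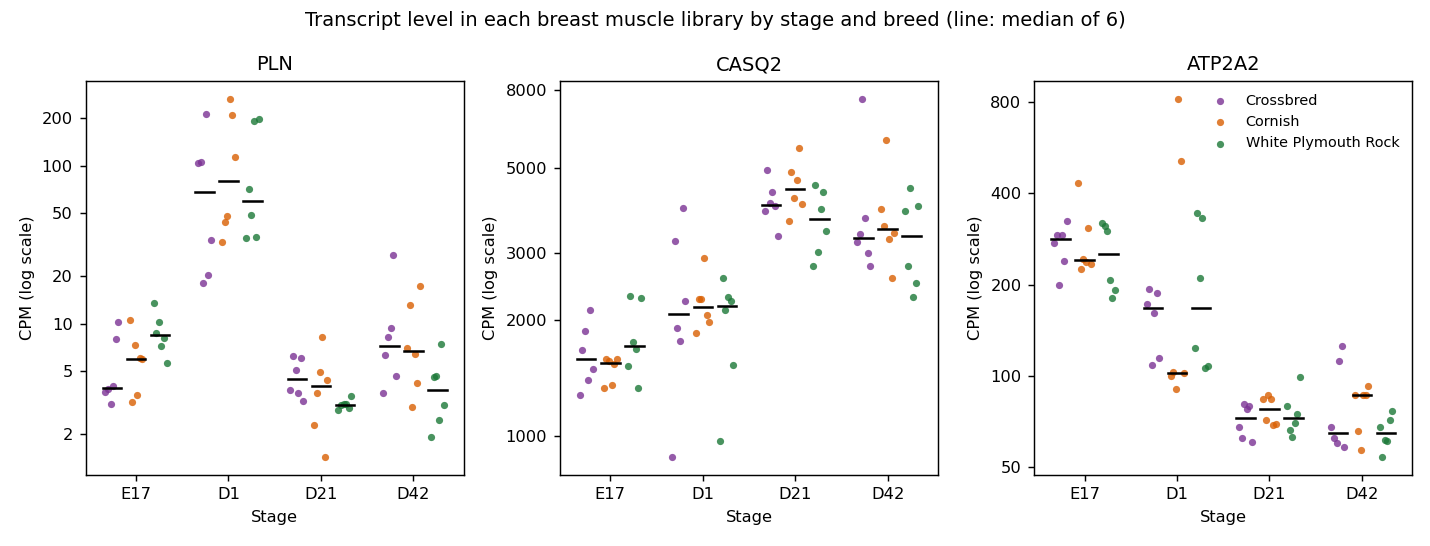
CPM of PLN, CASQ2 and ATP2A2 on log axes in each of 72 libraries, by stage and, within a stage, for the crossbred, Cornish and White Plymouth Rock. Lines mark the median of 6 libraries; PLN stands at 18.1 to 265 CPM at D1 with no overlap with E17 or D21, CASQ2 is higher at D21 and D42, and ATP2A2 is lower at D21 and D42.

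ATP2A2, the pump that PLN slows, did not share the D1 peak. It was at 181 to 433 CPM (median 259) at E17, 90.7 to 818 CPM (median 143) at D1, 60.4 to 99.4 CPM (median 73.4) at D21 and 54.1 to 125 CPM (median 67.8) at D42. Of 18 D1 libraries, 11 lay below every E17 library and 2 above every one, while 17 lay above every D21 library. Stage means were 267 ± 62.3, 216 ± 187, 74.8 ± 10.1 and 75.2 ± 19.7 CPM (SD, n = 18).

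D1 against E17 gave -0.35 ± 0.18 for ATP2A2 (95% interval -0.71 to 0.02, adjusted p = 0.0807). ATP2A2 fell 2.72-fold at D21 against D1 (-1.44 ± 0.19, adjusted p = 3.25e-10). D42 against D21 gave -0.03 ± 0.18 (95% interval -0.39 to 0.34, adjusted p = 0.929). At D42 it stood 3.53-fold lower than at E17 (-1.82 ± 0.19, adjusted p = 1.29e-13), and no D42 library reached the lowest E17 library. These steps use 1 spread per gene over all stages, so their intervals do not follow the spread of each stage. The standard deviation of log2 CPM within groups was 0.338, 0.957, 0.195 and 0.341 for ATP2A2 from E17 to D42.

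CASQ2, the luminal calcium buffer, was higher at D21 and D42 than at E17, where ATP2A2 was lower. It was at 1279 to 2310 CPM (median 1573) at E17, 880 to 3941 CPM (median 2183) at D1, 2767 to 5631 CPM (median 4043) at D21 and 2307 to 7578 CPM (median 3376) at D42. Neighbouring stages overlapped, although 15 of 18 D1 libraries lay below every D21 library. Stage means were 1650 ± 317, 2170 ± 725, 4083 ± 711 and 3669 ± 1287 CPM (SD, n = 18).

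CASQ2 rose at D1 against E17 (0.40 ± 0.13, adjusted p = 0.00382) and by 1.93-fold at D21 against D1 (0.95 ± 0.13, adjusted p = 1.15e-09). At D42 it was 2.24-fold higher than at E17 (1.16 ± 0.13, adjusted p = 1.30e-12). D42 against D21 gave -0.19 ± 0.13 (95% interval -0.44 to 0.06, adjusted p = 0.258). The D42 libraries numbered 3 had the highest CASQ2 of their breed, at 7578 CPM in the crossbred, 5918 in Cornish and 4427 in White Plymouth Rock. They also had the highest summed fast fibre markers, at 170500, 158300 and 136300 CPM. Without these libraries D42 against D21 was -0.34 ± 0.12 (adjusted p = 0.0232). A lower D42 level follows from leaving out the highest CASQ2 library of each breed, so this value is given as a description.

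Calls were common among all genes, so each count has to be read against them. For D1 against E17, 2 of the 3 genes were called, both higher, where 73.0% of 11932 genes were called, 37.3% higher and 35.6% lower. For D21 against D1 all 3 were called, CASQ2 higher and the other two lower, where 73.2% of genes were called, 36.4% higher and 36.8% lower. For D42 against D21, PLN alone was called, where 32.6% of genes were called, 17.1% higher and 15.6% lower. For D42 against E17, CASQ2 was called higher and ATP2A2 lower, where 81.2% of genes were called, 40.0% higher and 41.2% lower. Non-overlap was rarer. Among all genes 8.41% had every D1 library above every E17 library, 6.36% had every D21 library below every D1 library, and 15.4% had every D42 library below every E17 library.

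Ranked by mean, the 3 D1 groups led the 12 for PLN, with Cornish at 119 ± 97.9, White Plymouth Rock at 96.7 ± 77.2 and the crossbred at 82.3 ± 74.9 CPM (SD, n = 6 each). The other 9 lay between 3.09 ± 0.228 CPM, in White Plymouth Rock at D21, and 9.92 ± 8.74 CPM, in the crossbred at D42. CASQ2 was highest in Cornish at D21 (4505 ± 710 CPM) and lowest in Cornish at E17 (1492 ± 118 CPM), and the 6 groups of D21 and D42 filled its first 6 ranks. ATP2A2 was highest in Cornish at D1 (287 ± 307 CPM) and lowest in White Plymouth Rock at D42 (65.5 ± 8.21 CPM), with the groups of E17 and D1 in its first 6 ranks. In all 3 genes, every pair of neighbours in these orders had overlapping libraries.

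The steps were then taken breed by breed in the same fit. PLN rose at D1 against E17 by 3.91 ± 0.56 in the crossbred, 4.29 ± 0.56 in Cornish and 3.44 ± 0.54 in White Plymouth Rock (log2; adjusted p = 2.42e-08, 2.60e-09 and 2.63e-07 in edgeR). It fell at D21 against D1 in each of them, by 4.10, 4.79 and 4.94 on the log2 scale. CASQ2 rose at D1 against E17 by 0.52 in the crossbred (adjusted p = 0.0420) and 0.58 in Cornish (adjusted p = 0.0199), and had 0.11 in White Plymouth Rock (adjusted p = 0.703). Neither call held throughout: in the crossbred the adjusted p was 0.0526 with median-of-ratios factors and 0.0530 with no filter, and in Cornish it was 0.0792 without the 3 D1 libraries of highest summed level of slow fibre genes, Cornish 4 and 5 and White Plymouth Rock 2. At D21 against D1 it rose in each breed, by 0.84, 1.06 and 0.94. ATP2A2 fell at D1 against E17 by 0.78 on the log2 scale in the crossbred (adjusted p = 0.0338), with 0.04 in Cornish (adjusted p = 0.919) and -0.31 in White Plymouth Rock (adjusted p = 0.425). At D21 against D1 it fell in each breed, by 1.10, 1.85 and 1.39 on the log2 scale.

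For D1 against E17 that made 3, 2 and 1 of the 3 genes called in the crossbred, Cornish and White Plymouth Rock, where 53.7%, 57.5% and 53.5% of all genes were called. For D21 against D1 all 3 were called in each breed, where 56.3%, 55.3% and 53.6% of genes were. At D42 against D21 none of them was called in any breed by edgeR (1 of 9 at an unadjusted p under 0.05, 0 by DESeq2), where 6.12%, 8.95% and 8.26% of genes were. Whether a breed difference depended on stage was tested directly, and edgeR called 0 of the 3 genes (0 at an unadjusted p under 0.05, 0 by DESeq2). Over the 3 breeds the adjusted p was 0.798 for PLN and 1.00 for CASQ2 and ATP2A2, where 0.0587% of genes were called. Between Cornish and White Plymouth Rock alone it was 0.648, 0.725 and 0.951, where 0.268% of genes were called.

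The unevenness of ATP2A2 at D1 ran alongside transcripts of slow fibres. Cornish D1 libraries 4 and 5 had 818 and 509 CPM of ATP2A2, against 90.7 to 103 CPM in the other 4 Cornish libraries. The summed level of the 11 measured slow fibre genes, of 12 listed, was 3601 and 1710 CPM in these libraries and 274 to 385 CPM in the other 4. MYL3, a slow and cardiac myosin light chain, was at 686 and 269 CPM in them and at 3.40 to 9.55 CPM in the rest.

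The White Plymouth Rock libraries at D1 had 124, 343, 210, 330, 106 and 108 CPM of ATP2A2, and their slow fibre sums were 851, 1804, 1074, 855, 358 and 505 CPM. The crossbred libraries were narrower, at 109 to 193 CPM of ATP2A2 and 304 to 754 CPM of slow fibre transcripts. Both quantities were thus high in a few libraries of the purebreds. Over all D1 libraries MYL3 had a lowest level of 1.03 CPM, and TNNT1 of this list was not analysed here.

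Across stages, slow fibre genes fell in 5 of 11 at D1 against E17 and in 9 of 11 at D21 against D1, with 0 and 2 higher. Shares of all genes called lower were 35.6% and 36.8% at these steps, with 37.3% and 36.4% called higher. Their summed level was 2275 to 4644 CPM at E17, 274 to 3601 at D1, 2068 to 4087 at D21 and 1820 to 4881 at D42. Most of it came from TNNC1 at the later stages, since without that gene the sum was 171 to 255 CPM at D21 and 116 to 342 CPM at D42. TNNC1 was also a large part at E17, with a mean of 1927 CPM. Without it the sum was 733 to 3252 CPM at E17 and 237 to 3198 CPM at D1. The slow list's part in the course of ATP2A2 across stages was not tested.

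ATP2A2 was therefore also examined without the 3 D1 libraries of highest slow fibre sum, Cornish 4 and 5 and White Plymouth Rock 2, a choice made after the data had been seen. They were also the 3 highest D1 libraries in ATP2A2, so a lower D1 level without them follows from the choice, and the values are given as a description. In the other 15 libraries it averaged 148 ± 64.2 CPM (SD, median 115, highest 330). D1 against E17 became -0.93 ± 0.12. In Cornish it became -1.50 ± 0.23, the opposite sign to the 0.04 with all libraries, and in White Plymouth Rock -0.52 ± 0.21. All of these were called, where none was with all libraries. D21 against D1 in Cornish became -0.31 ± 0.22, which was not called. The size and call of both Cornish steps thus depended on libraries 4 and 5. PLN was still called in both steps without them, with 3.57 at D1 against E17 and -4.30 at D21 against D1. In Cornish alone these values were 3.29 and -3.78.

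**Figure D2:**
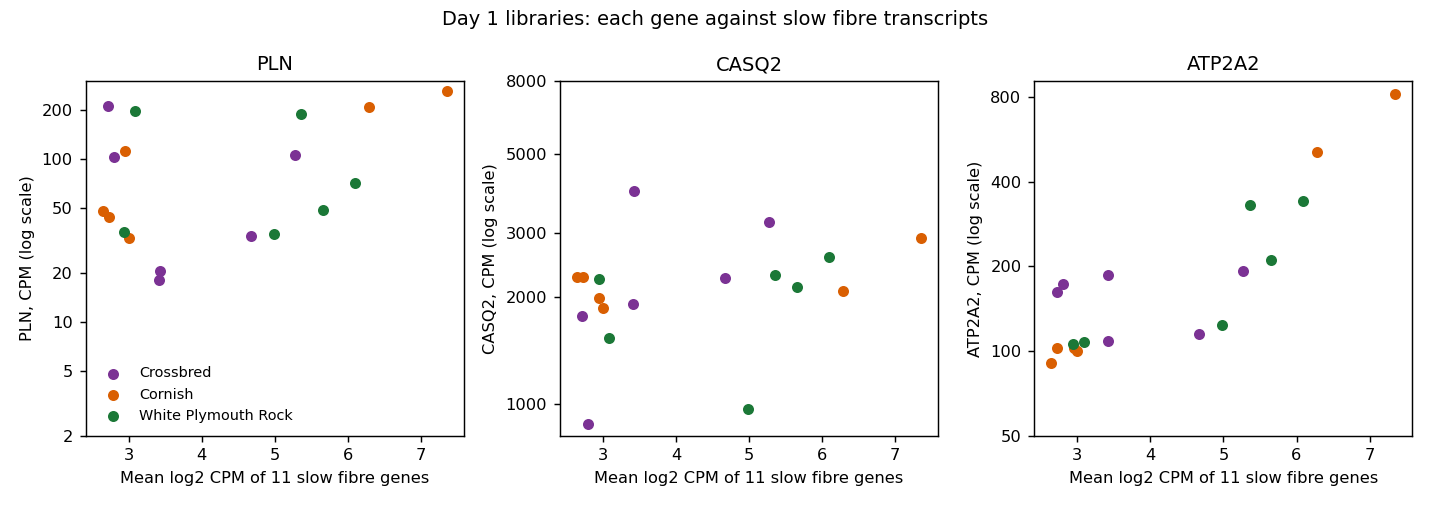
CPM of PLN, CASQ2 and ATP2A2 on log axes against the mean log2 CPM of 11 slow fibre genes in the 18 D1 libraries, coloured by breed. ATP2A2 climbs with the slow fibre level up to 818 CPM in Cornish library 4, while the 5 libraries with PLN at 191 to 265 CPM lie both at high and at low slow fibre levels.

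PLN at D1 did not have its high libraries only where the slow fibre sum was high. Crossbred library 4 and White Plymouth Rock library 6 had 212 and 198 CPM of PLN with slow fibre sums of 462 and 505 CPM. The median sum at D1 was 507 CPM. In these libraries CSRP3 of the slow list was at 69.9 and 174 CPM, and MYL3 at 1.16 and 1.78 CPM. PLN was also high, at 265, 211 and 191 CPM, in Cornish libraries 4 and 5 and White Plymouth Rock library 4. Their slow fibre sums were 3601, 1710 and 855 CPM.

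Breed comparisons asked whether the crossbred or either parental breed held more of these transcripts at a given stage. No difference passed the threshold. Over the 3 breed pairs and 4 stages edgeR called 0 of 36 member comparisons (5 at an unadjusted p under 0.05, 0 by DESeq2), and in each of them the libraries of the groups overlapped. Of all genes, crossbred against Cornish called 0.0171%, 0.0%, 0.122% and 0.0% at E17, D1, D21 and D42. Crossbred against White Plymouth Rock called 0.00853%, 0.0%, 0.0% and 0.0%. Cornish against White Plymouth Rock called 3.72%, 0.0%, 2.93% and 0.0347%. Where edgeR called 0.0% of genes in these pairs, 240 to 1002 genes had an unadjusted p under 0.05 and DESeq2 called 1 to 78. Against the mean of both parents on the log2 scale, edgeR called 0 of 12 member comparisons (0 at an unadjusted p under 0.05, 0 by DESeq2), where 0.0% of genes were called at each stage (671, 570, 389 and 248 genes at an unadjusted p under 0.05, and 2, 4, 3 and 0 by DESeq2).

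PLN at D42 had the widest gap. The crossbred libraries had 3.66, 6.33, 8.25, 9.35, 27.2 and 4.70 CPM, the Cornish libraries 7.002, 13.1, 2.98, 6.49, 4.22 and 17.5 CPM and the White Plymouth Rock libraries 1.92, 4.60, 4.70, 2.47, 7.47 and 3.06 CPM. The groups overlapped, with the lowest libraries in White Plymouth Rock. Crossbred against White Plymouth Rock gave 1.28 ± 0.50 (95% interval 0.23 to 2.34, unadjusted p = 0.0197, adjusted p = 0.915 in edgeR), and 0.66 without crossbred library 5. Cornish against White Plymouth Rock gave 1.08 ± 0.50 (0.03 to 2.13, adjusted p = 0.580).

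At E17 PLN lay the other way. The crossbred libraries had 3.73, 3.87, 3.10, 4.01, 8.02 and 10.3 CPM, the Cornish libraries 10.5, 3.19, 7.31, 3.56, 6.07 and 5.99 CPM and the White Plymouth Rock libraries 13.5, 8.76, 10.3, 7.22, 8.16 and 5.67 CPM. White Plymouth Rock had the highest library and its lowest stood above 4 of the 6 crossbred libraries. Crossbred against White Plymouth Rock gave -0.70 ± 0.32 (95% interval -1.38 to -0.02, adjusted p = 0.523 in edgeR), and Cornish against White Plymouth Rock gave -0.57 ± 0.32 (-1.25 to 0.11, adjusted p = 0.350).

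CASQ2 differed between Cornish and White Plymouth Rock by -0.30 ± 0.14 at E17 (95% interval -0.58 to -0.01, adjusted p = 0.226) and 0.30 ± 0.14 at D21 (0.02 to 0.59, adjusted p = 0.235). At D21 Cornish libraries had 3639, 4896, 4177, 4653, 5631 and 4035 CPM and White Plymouth Rock libraries 2767, 4509, 3013, 3917, 4340 and 3429 CPM. The 3 lowest values were all in White Plymouth Rock, and the ranges overlapped. The intervals for CASQ2 were widest at D1, where crossbred against White Plymouth Rock gave 0.26 (-0.33 to 0.85).

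ATP2A2 had its narrowest intervals at D21, where crossbred against Cornish gave -0.11 (-0.35 to 0.12) and Cornish against White Plymouth Rock 0.04 (-0.19 to 0.27). At D1 Cornish against White Plymouth Rock gave 0.50 ± 0.52 (-0.59 to 1.59, adjusted p = 0.826), and -0.83 ± 0.30 (adjusted p = 0.538) without the 3 libraries of highest slow fibre sum. Crossbred against Cornish at D1 gave -0.87 ± 0.52 (-1.96 to 0.23, adjusted p = 0.867), and 0.67 ± 0.29 (adjusted p = 0.660) without them. The sign of both differences at D1 thus turned when those libraries, the highest in ATP2A2, were left out.

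**Figure D3:**
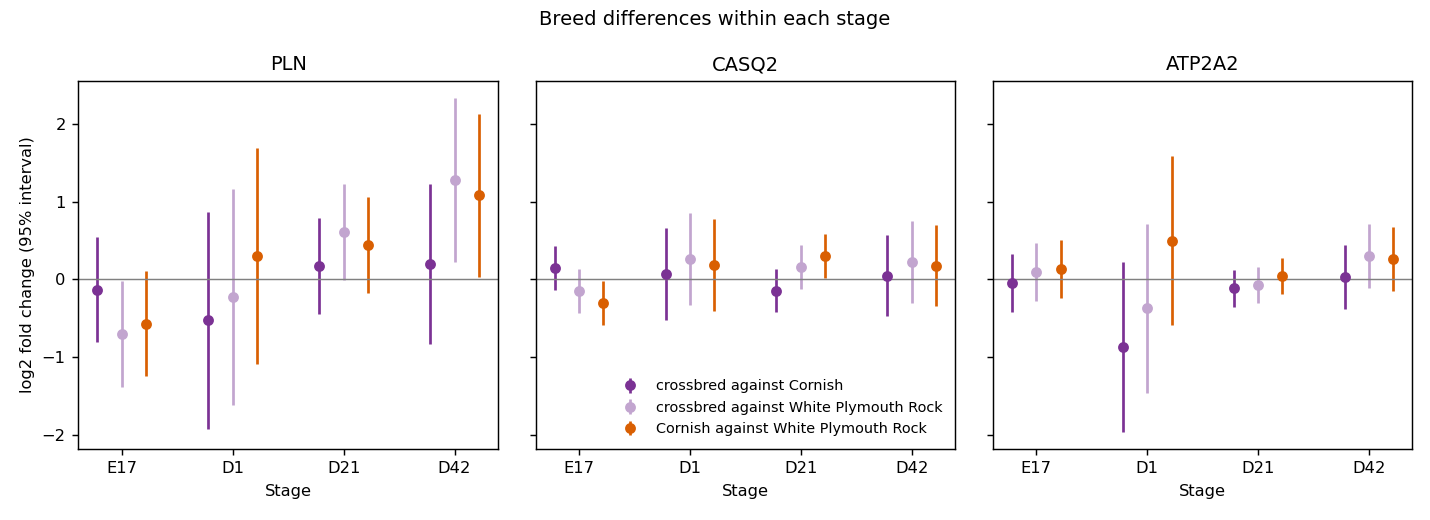
Log2 fold change with its 95% interval for crossbred against Cornish, crossbred against White Plymouth Rock and Cornish against White Plymouth Rock at each stage. Intervals are widest for PLN and, at D1, for ATP2A2, and narrowest for ATP2A2 at D21; none of the 36 differences passed the adjusted threshold.

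The authors' deposited table of breed comparisons, which holds only genes with an unadjusted p under 0.05 and whose fold changes run White Plymouth Rock over the breed named first, listed PLN and CASQ2 but not ATP2A2. For PLN the authors' deposited table gave 0.70 against the crossbred and 0.57 against Cornish at E17, -0.61 against the crossbred at D21, and -1.29 against the crossbred and -1.08 against Cornish at D42. For CASQ2 the authors' deposited table gave 0.30 at E17 and -0.31 at D21, both against Cornish. Their unadjusted p-values ran from 0.00189 to 0.0398 in the authors' deposited table.

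The wider calcium handling machinery was described with 50 further genes, of which 44 were measured and tested. At D1 against E17, 26 rose and 8 fell, with a median log2 fold change of 0.50 against 0.01 over all genes. Of all genes tested, 37.3% were called higher and 35.6% lower at this step. CASQ1 rose most, to 138 ± 53.3 CPM at D1 against 13.9 ± 4.55 CPM at E17 (SD, n = 18; 3.30 ± 0.17, adjusted p = 6.26e-26). SLN, which encodes sarcolipin, a small inhibitor of SERCA pumps related to phospholamban, was at 384 ± 113 CPM at D1 and 114 ± 36.2 CPM at E17 (1.75 ± 0.15). Of the release machinery, RYR3, a ryanodine receptor, rose by 0.40 ± 0.13, CACNA1S, the pore of the voltage sensor in the surface membrane, by 2.31 ± 0.13 and TRDN, the triadin that ties calsequestrin to the release channel, by 2.07 ± 0.18. PPP1R1A, an inhibitor of protein phosphatase 1, rose by 2.59 and DHRS7C, a reductase of the sarcoplasmic reticulum, by 1.86. JPH3, a junctophilin, fell by 1.11 on the log2 scale, the calcium-dependent kinase CAMK2A by 0.66, SELENON, a selenoprotein of the reticulum membrane, by 0.65 and FKBP1A, which binds the release channel, by 0.62.

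SLN, the other small pump inhibitor, was called higher at D1 than at E17 and lower at D21 than at D1, as PLN was, with smaller fold changes. At D21 SLN was at 282 ± 77.7 CPM against 384 ± 113 CPM at D1 (-0.40 ± 0.15, adjusted p = 0.0126), and at D42 at 495 ± 163 CPM (0.78 ± 0.15 against D21, adjusted p = 3.99e-05). RYR3 was higher, as CASQ2 was, with 1232 ± 284 CPM at D21 against 506 ± 164 CPM at D1 (1.33 ± 0.13, adjusted p = 3.83e-14). CASQ1 was at 119 ± 31.0 CPM at D21 against 138 ± 53.3 CPM at D1 (-0.15 ± 0.16, adjusted p = 0.400).

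At D21 against D1, 17 of the 44 rose and 11 fell, with a median of 0.07 against -0.01 over all genes. The shares of all genes called were 36.4% higher and 36.8% lower. JPH3 rose by 4.18 ± 0.16, to 64.0 ± 12.5 CPM at D21 against 3.65 ± 1.74 CPM at D1. The sodium-calcium exchanger SLC8A1 rose by 1.66 and CACNG1, a subunit of the voltage sensor channel, by 1.25. SLC8A3, another exchanger, fell by 1.70 on the log2 scale, CAMK2B by 1.21, CACNA1S by 1.18 and the inositol trisphosphate receptor ITPR3 by 1.01. In the same step 9 of 11 fast fibre genes rose and 2 fell, with a median of 1.18, beside the rise of CASQ2. Their part in that rise was not tested.

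At D42 against D21, 11 rose and 7 fell, with a median of 0.10 against -0.00 over all genes. Here 17.1% of all genes were called higher and 15.6% lower. Besides SLN, JPH3 rose by 0.73, JPH1, another junctophilin, by 0.50, the cation channel gene TMEM38B by 0.48 and ASPH, whose products include junctin, by 0.46. FKBP1B fell by 1.06 on the log2 scale, PPP1R1A by 0.59, the plasma membrane calcium pump ATP2B1 by 0.41 and FKBP1A by 0.30. Without the D42 libraries numbered 3, 14 genes fell, and TMEM38B (0.27, adjusted p = 0.0950) and ASPH (0.29, adjusted p = 0.0866) were not called. Over the whole span, D42 against E17, 33 rose and 7 fell with a median of 0.78 against -0.02. Those that rose included JPH3 (3.80), CASQ1 (2.76), TRDN (2.65), JPH1 (2.59), SLN (2.13), CACNG1 (2.04) and RYR3 (1.83). SLC8A3, CAMK2B, ITPR3 and CAMK2A fell by 1.49, 1.27, 0.63 and 0.62 on the log2 scale. ATP2A2 fell over this span, as 7 of 44 listed genes did, while 33 rose. Of all genes tested, 40.0% were called higher and 41.2% lower over the same span.

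**Figure D4:**
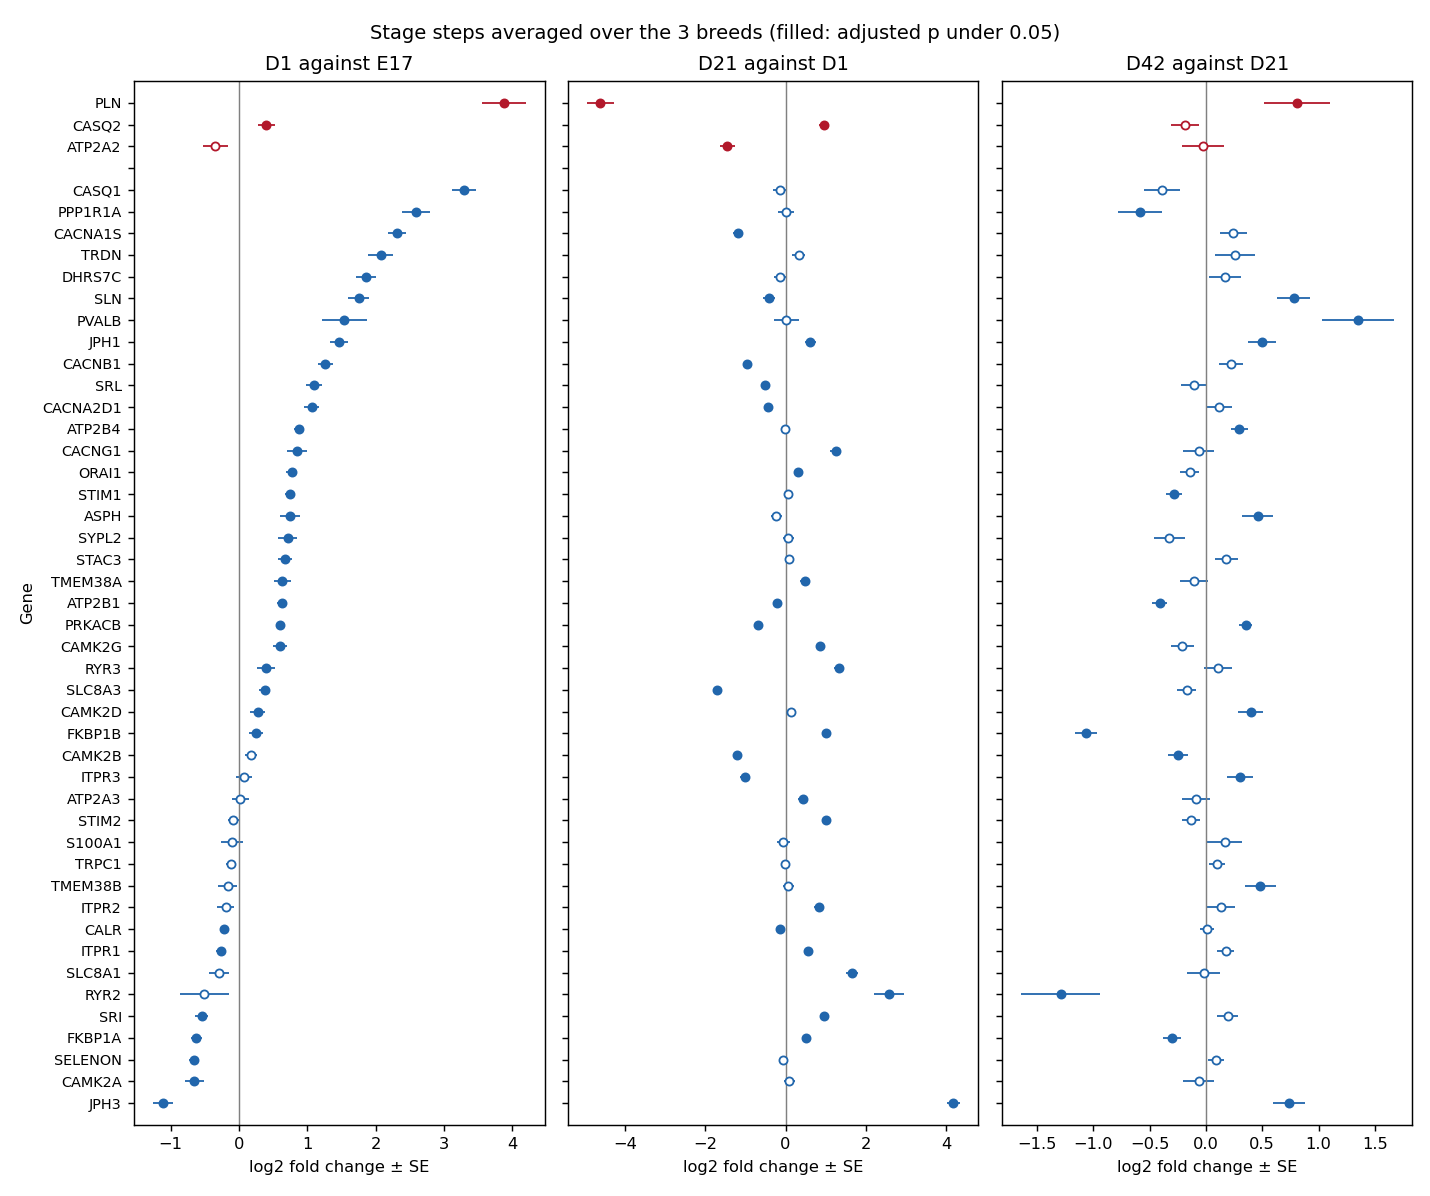
Log2 fold change ± SE at each stage step, averaged over the 3 breeds, for genes of the calcium handling list and, at the top, PLN, CASQ2 and ATP2A2. Filled points have an adjusted p under 0.05; the horizontal scale differs between panels. PLN has the largest change of all genes shown at D1 against E17 (3.88) and at D21 against D1 (-4.61).

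Between Cornish and White Plymouth Rock, 3 of 44 list genes were called at E17 and 5 at D21. PLN, CASQ2 and ATP2A2 were not called. Of all genes, 3.72% were called at E17 and 2.93% at D21. At E17 ITPR1 was higher in Cornish (0.44 ± 0.11, adjusted p = 0.0315), and DHRS7C (-0.97 ± 0.22, adjusted p = 0.0201) and the store sensor STIM1 (-0.29 ± 0.08, adjusted p = 0.0420) were lower. At D21 TMEM38B was at 82.8 ± 10.8 CPM in Cornish and 49.3 ± 6.70 CPM in White Plymouth Rock (SD, n = 6 each; 0.75 ± 0.13, adjusted p = 0.00683 in edgeR). SYPL2, a protein of the triad junction, was higher in Cornish by 0.95 ± 0.21, PPP1R1A by 0.80 ± 0.17 and RYR3 by 0.59 ± 0.13, while SLC8A3 was lower by 0.50 on the log2 scale. At D1 edgeR called 0 of 44 (7 at an unadjusted p under 0.05, 0 by DESeq2), and at D42 it called 0 (4 unadjusted, 1 by DESeq2). In the fit of all 72 libraries the counts at E17 and D21 were 0 and 2. TMEM38B, PPP1R1A and RYR3 were not called at D21 in that fit (adjusted p = 0.0901, 0.245 and 0.179 in edgeR). Crossbred comparisons called 0 of 352 list tests over the 4 stages (28 unadjusted, 0 by DESeq2). SLN had -0.33 at E17, 0.21 at D1, 0.13 at D21 and 0.05 at D42 for Cornish against White Plymouth Rock, and CASQ1 had -0.16, 0.64, 0.05 and -0.15. None of these was called.

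The genes most like each member were ranked by the Pearson correlation of log2 CPM over the 72 libraries, among the 9279 named genes whose mean reached 5 CPM. The libraries differ in stage and depth, which affects all genes, so the values are descriptions. For PLN they were the inward rectifier potassium channel KCNJ2 (0.863), the folate carrier SLC19A1 (0.859), TMEM120A (0.858), the fatty acid oxidation enzyme HADHA (0.854) and MIGA2 (0.848). KCNJ2 stood at 56.3, 188, 40.0 and 52.9 CPM from E17 to D42, a D1 peak like that of PLN. For CASQ2 they were CACNG1 (0.937), the fast fibre genes MYL1 (0.929), TNNI2 (0.921) and TPM1 (0.917), and RYR3 (0.915). For ATP2A2 they were the slow troponin TNNI1 (0.893), MYOM3 (0.867), MYOZ2 (0.865), RBM3 (0.865) and NOC4L (0.862). TNNI1 stood at 521, 67.2, 3.96 and 7.38 CPM from E17 to D42.

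With the group mean taken out, so that only differences among libraries of a group remained, PLN was most like FHL1 (0.714), CSRP3 (0.696), CAMK1D (0.649), MYOM3 (0.642) and RCAN2 (0.582). CASQ2 was most like HACD1 (0.832), ACTN2 (0.821), CACNG1 (0.816), SYPL2 (0.815) and CALM2 (0.815). ATP2A2 was most like TNNI1 (0.766), TPM3 (0.748), MYL10 (0.692), HMGN4 (0.610) and MYL3 (0.582). CSRP3, TNNI1, TPM3, MYL10 and MYL3 are in the slow fibre list. None of the 3 genes was among the 5 most like another. These values pool the stages, and each of the 3 genes varied most within groups at D1, so D1 libraries weigh most in them. The standard deviation of log2 CPM at D1 was 1.29 for PLN, 0.549 for CASQ2 and 0.957 for ATP2A2.

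Whether the 3 genes moved together among libraries of a stage was tested on deviations from the group mean, over 18 libraries a stage and 12 relations, with 100000 permutations within groups (two-sided). PLN and ATP2A2 had the highest r of the 3 pairs at each stage, although at D1 rho was higher for ATP2A2 and CASQ2. At E17 r was 0.627 (permutation p = 0.00601, adjusted p = 0.0721) and rho 0.639 (permutation p = 0.00306, adjusted p = 0.0367), with r = 0.464 without the 2 libraries farthest from the PLN median. At D1 r was 0.569 (permutation p = 0.0136, adjusted p = 0.0816) and rho 0.478 (permutation p = 0.0332, adjusted p = 0.133), with r = 0.514 without 2 libraries. At D21 r was 0.291 and rho 0.276 (permutation p = 0.183 and 0.268). At D42 r was 0.532 and rho 0.457 (permutation p = 0.0463 and 0.0806, adjusted p = 0.161 and 0.242), and r was 0.250 without 2 libraries, so that relation rested on them. For ATP2A2 and CASQ2 at D1, rho was 0.503 (permutation p = 0.00831, adjusted p = 0.0499) with r = 0.319 (permutation p = 0.0536, adjusted p = 0.161) and r = 0.329 without 2 libraries. In the other 7 relations with CASQ2, r lay between -0.281 and -0.00708, with no adjusted p under 0.762.

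A second family of 24 relations, added after the data had been seen, set each gene against the mean log2 CPM of the slow and of the fast fibre genes. CASQ2 followed the fast fibre genes at each stage, with r = 0.835, 0.893, 0.683 and 0.866 from E17 to D42 (permutation adjusted p = 0.002, 0.00072, 0.0242 and 0.00096) and rho = 0.862, 0.831, 0.759 and 0.736. Without 2 libraries r was 0.821, 0.789, 0.628 and 0.710. ATP2A2 followed the slow fibre genes at D1 (r = 0.859, rho = 0.862, permutation adjusted p = 0.00912 and 0.0032; r = 0.724 without 2 libraries) and at D21 (r = 0.671, rho = 0.705, permutation adjusted p = 0.0142 and 0.0166; r = 0.744 without 2). At E17 and D42 its r was 0.499 and 0.622 (permutation adjusted p = 0.129 and 0.118), and 0.215 and 0.273 without 2 libraries. MYL2, MYL3, MYH7 and MYL10 of the slow list averaged only 0.098, 0.126, 0.227 and 0.302 CPM at D21. They averaged 0.026, 0.14, 0.16 and 1.07 CPM at D42, so the slow list mean at both stages includes genes with few counts. At D21 ATP2A2 ran against the fast fibre genes (r = -0.617, rho = -0.447, permutation adjusted p = 0.0473 and 0.152). PLN followed neither list past the threshold at any stage, and its highest r was 0.557 with the slow fibre genes at D42 (rho = 0.587, permutation adjusted p = 0.0861 and 0.0525).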

How the data were processed

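RNA sequencing of 72 frozen breast muscle samples was analysed. The source label speaks of myofibroblasts, but the extraction protocol describes tissue. Per the submitters' processing notes, cutadapt 4.4, HISAT2 2.2.1, StringTie and the build GRCg7b were used, with no roles given. The sources used here do not give the annotation, the strand setting or any filter. The deposited table holds estimated counts per gene as whole numbers, not normalised. The authors' deposited breed tables hold, per the file headers, a p-value, a score, a mean signal and a log2 fold change for each gene; the tool is not stated.

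Counts were analysed as deposited in edgeR 4.0.16 and R 4.3.3 with TMM, filterByExpr, the quasi-likelihood F test and Benjamini-Hochberg adjustment over all genes tested, at a threshold of 0.05. Stage steps, averaged over breeds, and interactions came from 1 fit of all 72 libraries with 12 group means, and breed comparisons from fits of the 18 libraries of a stage. Every adjusted p for a gene is from these fits unless DESeq2 1.42.0, an alternative, is named. All 3 genes passed the filter in every fit. SE is the size of the log2 fold change divided by the root of F. Log2 CPM used a prior count of 2. The test was tested on simulated data.

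The 3 genes, the gene lists and the tests were chosen with earlier results of these data known. Beside the 3 genes, the list genes named are CASQ1, SLN and RYR3 in every step, up to 4 further genes in each direction with the largest change and a mean of at least 5 CPM, and every list gene called between breeds. Not every gene that this rule takes is reported here. Genes most like a member are the 5 of highest correlation. Promoter sequences were not used here. Other scaling, other filters, the replicate number as a block, fewer or all groups in a fit and leaving out libraries were tried. Leaving out the 3 D1 libraries of highest slow fibre sum or crossbred D42 library 5, and the relations to the fibre lists, were chosen after seeing the data.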

Additional observations from a re-analysis of the deposited data

Results flagged for a closer look

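Of the 36 sets of 6 libraries (3 genes in 12 groups), 2 had a library far from the other 5, and chance marks about 1 in 20 such sets. PLN in crossbred D42 library 5 was at 27.23 CPM, with the next highest crossbred library at 9.354 CPM, a gap that made up 0.758 of the range of the group. CASQ2 in crossbred D42 library 3 was at 7578 CPM, with the next highest crossbred library at 3694 CPM and a gap of 0.808 of the range.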

How the results depend on the processing

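For 81 values of the 3 genes, 696 results came from settings other than leaving out each library in turn. These settings included leaving out crossbred D42 library 5. Some of them left out libraries of stages outside a comparison, whose value could then hardly change. Of the 696, 682 were counted as kept in direction and call, with 5 calls lost, 4 gained and 5 directions turned. Those counted as kept include 33 in which a difference called in neither fit changed sign by less than its SE. Leaving out each library in turn in the breed comparisons gave 648 values, of which 644 were counted as kept. Libraries of the breed outside the pair were also left out, where little could change. Values counted as kept here also include changes of sign. For crossbred against Cornish, PLN at E17 ran from -0.42 to 0.093 and CASQ2 at D1 from -0.14 to 0.24. For crossbred against White Plymouth Rock at D1, PLN ran from -0.77 to 0.11.

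Without the 3 D1 libraries of highest slow fibre sum, which were also the highest in ATP2A2, ATP2A2 had -0.93 at D1 against E17, -1.50 and -0.52 in Cornish and White Plymouth Rock, and -0.31 for D21 against D1 in Cornish. CASQ2 at D1 against E17 in Cornish had 0.49 (adjusted p = 0.0792). At D1, Cornish against White Plymouth Rock turned to -0.83 for ATP2A2 and -0.77 for PLN, and crossbred against Cornish to 0.67 and 0.48, none called. Without crossbred D42 library 5, the highest in PLN at that stage, PLN had 0.60 (adjusted p = 0.101) at D42 against D21. Without the D42 libraries numbered 3, the highest of their breed in CASQ2, CASQ2 had -0.34 (adjusted p = 0.0232) and RYR3 -0.067 at that step. In that fit 14 calcium handling genes were lower in place of 7. CASQ2 at D1 against E17 in the crossbred had 0.50 (adjusted p = 0.0526) with median-of-ratios factors and 0.51 (adjusted p = 0.0530) with no filter. In 1 fit of all 72 libraries, Cornish against White Plymouth Rock called 0, 2 and 1 calcium handling genes at E17, D21 and D42, and DESeq2 called 1 at D42. The causes were not tested.

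Over leave-one-out fits ATP2A2, Cornish against White Plymouth Rock at D1, ran from -0.17 to 0.71. Crossbred against Cornish at D42 ran from -0.42 to 0.54 for PLN and from -0.22 to 0.24 for CASQ2, and crossbred against White Plymouth Rock from -0.040 to 0.34 for CASQ2.

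Between breeds, deviations of libraries with the same number correlated by a mean of 0.00612, -0.00763, -0.00618 and 0.216 from E17 to D42. Libraries with other numbers had a mean of -0.0382 at D42, where same-numbered pairs ran from -0.123 to 0.644. The numbers were not taken to pair samples, although same-numbered libraries were more alike on average at D42. With the replicate block ATP2A2 had -0.42 (adjusted p = 0.0305) at D1 against E17, and no other call of the 3 genes changed. Depth limited PLN most, with 56 counts in its lowest library.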

Other observations

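Among the calcium handling genes below 5 CPM, which were named after their values were seen, PVALB and RYR2 had large stage steps at low levels. PVALB, which encodes the calcium buffer parvalbumin, was at 1.45 ± 0.670 CPM at D1 and 0.507 ± 0.210 CPM at E17 (SD, n = 18; 1.54 ± 0.33 on the log2 scale, adjusted p = 2.75e-05 in edgeR), and at 3.95 ± 4.44 CPM at D42 and 1.47 ± 0.906 CPM at D21 (1.35 ± 0.32, adjusted p = 0.000738). RYR2, the ryanodine receptor of the heart, was at 2.24 ± 1.15 CPM at D21 and 0.389 ± 0.258 CPM at D1 (2.58 ± 0.37, adjusted p = 6.57e-09), and lower at D42 than at D21 (-1.29 ± 0.35, adjusted p = 0.00318).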
